A study of Mus musculus with 6 samples.

Results

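The metallothionein genes and the core of the zinc response were examined in EMT6 cells, a mouse mammary carcinoma line, kept in culture with an antibody against PD-L1 or with its isotype control. Of the 53465 genes in the deposited table, 6 were taken by name: the metallothioneins Mt1 and Mt2, the antisense gene Gm45774 on the strand opposite Mt2, the zinc-sensing factor Mtf1, and the zinc transporters Slc30a1 and Slc39a10. They were selected on gene function and on the difference between the groups in these libraries, which was known beforehand. In that comparison edgeR's quasi-likelihood test gave Benjamini-Hochberg adjusted p-values of 0.00529 for Gm45774, 0.0180 for Mt2 and 0.241 for Mt1, so the differences of the 6 genes between the groups are given below as a description and no test of them is offered as support. Calls at an adjusted p under 0.05 covered 0.246% of the 14217 genes tested, with 0.148% lower and 0.0985% higher after anti-PD-L1. Of the 6 genes, Mt2 and Gm45774 were called, both lower.

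The parental group (P, 3 libraries) had received isotype control antibody, and the anti-PD-L1 group (PTR, named resistant or PDR in the sample labels, 3 libraries) had received anti-PD-L1. Both were held at 0.5 μg/ml for more than 4 weeks in RPMI medium with fetal bovine serum before polyA RNA was sequenced. PTR cells had met the antibody in culture and not in a host, so no immune cell was part of the model. P and PTR stand throughout for these culture-treated cells, which the study names EMT6-P VITRO and EMT6-PTR VITRO, and not for its variants taken from tumors in mice. The labels number the libraries 1 to 3 without saying whether they came from separate cultures, so every error below is the spread between libraries, which may be technical. In RNA from whole cultures, fewer cells expressing a gene and less of its RNA per cell cannot be told apart.

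Metallothioneins are small, cysteine-rich proteins whose thiol groups hold zinc, copper and cadmium, and Mt1 and Mt2 are the forms that most tissues and cell lines express. Free zinc in the cell is sensed by MTF-1, the product of Mtf1, a zinc finger factor that binds metal response elements in the promoters of Mt1, Mt2 and Slc30a1. Slc30a1 encodes ZnT1, which carries zinc out of the cell across the plasma membrane, and Slc39a10 encodes ZIP10, which carries zinc in and whose gene MTF-1 represses in mouse cells. Glucocorticoids, IL-6 and oxidants are other known inducers of the Mt1 and Mt2 promoters.

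The coding sequences of the main Mt1 and Mt2 transcripts (GENCODE M21, GRCm38, plus strand) are printed to show what the pair has in common and how far reads from each can be told apart. Each runs 5′ to 3′ from start to stop codon over 186 bases, with the cysteine codons in capitals.
Mt1: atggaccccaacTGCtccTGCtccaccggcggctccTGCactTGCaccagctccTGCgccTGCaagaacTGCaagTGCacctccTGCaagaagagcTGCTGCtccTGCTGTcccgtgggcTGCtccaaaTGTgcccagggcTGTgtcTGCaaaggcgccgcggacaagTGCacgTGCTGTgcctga
Mt2: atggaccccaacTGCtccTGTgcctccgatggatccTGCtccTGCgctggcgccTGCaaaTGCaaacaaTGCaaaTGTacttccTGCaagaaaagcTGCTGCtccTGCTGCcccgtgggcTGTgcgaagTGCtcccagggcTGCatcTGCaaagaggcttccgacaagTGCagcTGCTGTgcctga
Each held 61 codons before the stop, of which 20 encoded cysteine, 16 as TGC and 4 as TGT. All 20 cysteine codons fell at the same place in both. Aligned without gaps, 148 of 186 bases (79.6%) were identical, and the longest identical stretch was 20 bases.

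Promoter sequence is shown for the metallothionein pair and for Slc30a1 because these are the genes among the 6 that MTF-1 is known to induce. Each window is 240 bases of RefSeq promoter sequence (GRCm38.p6), from 250 to 11 bases before the start site, 5′ to 3′ on the gene's strand. Capitals mark matches to the metal response element cores TGCACNC and TGCGCNC, searched on both strands. The Mt2 window is chr8:94172368-94172607 on the plus strand.
Mt2: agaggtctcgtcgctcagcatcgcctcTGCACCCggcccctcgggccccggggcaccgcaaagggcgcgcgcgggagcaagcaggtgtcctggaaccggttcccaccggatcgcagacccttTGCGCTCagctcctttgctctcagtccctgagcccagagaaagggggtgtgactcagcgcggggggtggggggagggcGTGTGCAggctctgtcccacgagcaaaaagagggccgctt
The Mt1 window is chr8:94178839-94179078 on the plus strand.
Mt1: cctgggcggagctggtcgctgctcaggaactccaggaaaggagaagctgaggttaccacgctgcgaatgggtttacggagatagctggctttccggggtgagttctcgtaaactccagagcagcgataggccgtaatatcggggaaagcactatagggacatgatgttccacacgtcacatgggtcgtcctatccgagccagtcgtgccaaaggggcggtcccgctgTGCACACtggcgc
The Slc30a1 window is chr1:191906531-191906770 on the plus strand.
Slc30a1: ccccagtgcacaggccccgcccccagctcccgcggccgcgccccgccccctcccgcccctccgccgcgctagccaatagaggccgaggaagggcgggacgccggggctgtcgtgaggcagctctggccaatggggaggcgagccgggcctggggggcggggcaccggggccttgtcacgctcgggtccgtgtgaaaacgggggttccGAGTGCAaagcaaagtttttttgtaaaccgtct
Mt2 had 3 matches, with their upstream ends at -223, -128 and -50 from the start site, Mt1 had 1 at -23 and Slc30a1 had 1 at -43. The window of Mtf1 and both windows of Slc39a10 had 0. Of all 32851 windows of this length in the promoter table, 20.4% held at least 1 match and 1.18% held at least 3. The annotated 5′ leaders of the metallothionein transcripts held further matches. That of Mt1 (229 bases) had 4, all upstream of a TATAAA at its base 129, and that of Mt2 (184 bases) had 3, all upstream of a TATAAA at its base 90. In both genes the TATAAA lies downstream of the start site used for the window. The window counts and the shares over all windows leave these leader matches out. A match describes the letters only, and Gm45774 had no entry in the table.

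Libraries held between 17757341 (PTR replicate 3) and 32426739 (PTR replicate 1) estimated counts. Levels below are CPM, the estimated counts relative to the library total after upper-quartile scaling, and the fold changes are log2 values of PTR over P from edgeR with their standard errors (SE). The median over all tested genes was -0.00397. Of the 6 EMT6 markers checked, Krt8, Krt18 and Vim were abundant, with the list summing to 3404 to 3516 CPM in P and 3499 to 3578 CPM in PTR, and Cdh1 was at or below 3 counts. The sum lay mostly in Vim and Krt8. Of the 5 tested, the groups did not overlap for Krt18 (log2 fold change 0.17) and Epcam (0.48), with PTR higher, or for Krt14 (-0.25), with PTR lower. None of these was called by edgeR, and groups without overlap were found for 17.6% of all tested genes. Of 6 leukocyte markers, 5 were at or below 3 counts, and the list summed to 11.8 to 13.3 CPM in P and 11.3 to 13.0 CPM in PTR, nearly all from Cd68. Of 4 endothelial markers, 2 were at or below 3 counts, and the list summed to 0.207 to 0.300 CPM in P and 0.177 to 0.225 CPM in PTR. The 4 fibroblast markers summed to 126.8 to 136.3 CPM in P and 107.9 to 117.8 CPM in PTR, with Lum at or below 3 counts. The sums did not overlap, and most of the difference lay in Dcn, at 42.2 ± 5.78 CPM in P and 28.2 ± 4.72 in PTR (SD, n = 3), with a log2 fold change of -0.56 (adjusted p = 0.0919 by edgeR), while Pdgfrb had -0.10, also without overlap, and Pdgfra had 0.10. Their part in the values below was not tested.

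Mt2 (ENSMUSG00000031762.7, chr8:94172664-94173568, plus strand) was the most abundant of the 6. It was measured at 205, 215 and 195 CPM in P replicates 1, 2 and 3 and at 164, 164 and 171 CPM in PTR replicates 1, 2 and 3. Every PTR library lay below every P library, and the PTR libraries lay closer together than the P libraries. The means were 205 ± 10.1 CPM (SD, n = 3) in P and 166 ± 4.25 CPM (SD, n = 3) in PTR. That is 1.24-fold more in P, with a fitted log2 fold change of -0.31 (SE 0.0428).

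Mt1 (ENSMUSG00000031765.8, chr8:94179082-94180327, plus strand) starts 5513 bases beyond the end of Mt2 and is transcribed in the same direction. Its level was 105, 101 and 94.9 CPM in P and 95.2, 83.3 and 85.5 CPM in PTR. The groups overlapped, since PTR replicate 1 sat just above P replicate 3, while the other PTR libraries lay below every P library. The means were 100.4 ± 5.31 CPM (SD, n = 3) and 88.0 ± 6.35 CPM (SD, n = 3), with a log2 fold change of -0.19 (SE 0.0575). Mt3 and Mt4, the metallothioneins of brain and of stratified epithelium in the same cluster, had a count of 0 in all 6 libraries.

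**Figure D1:**
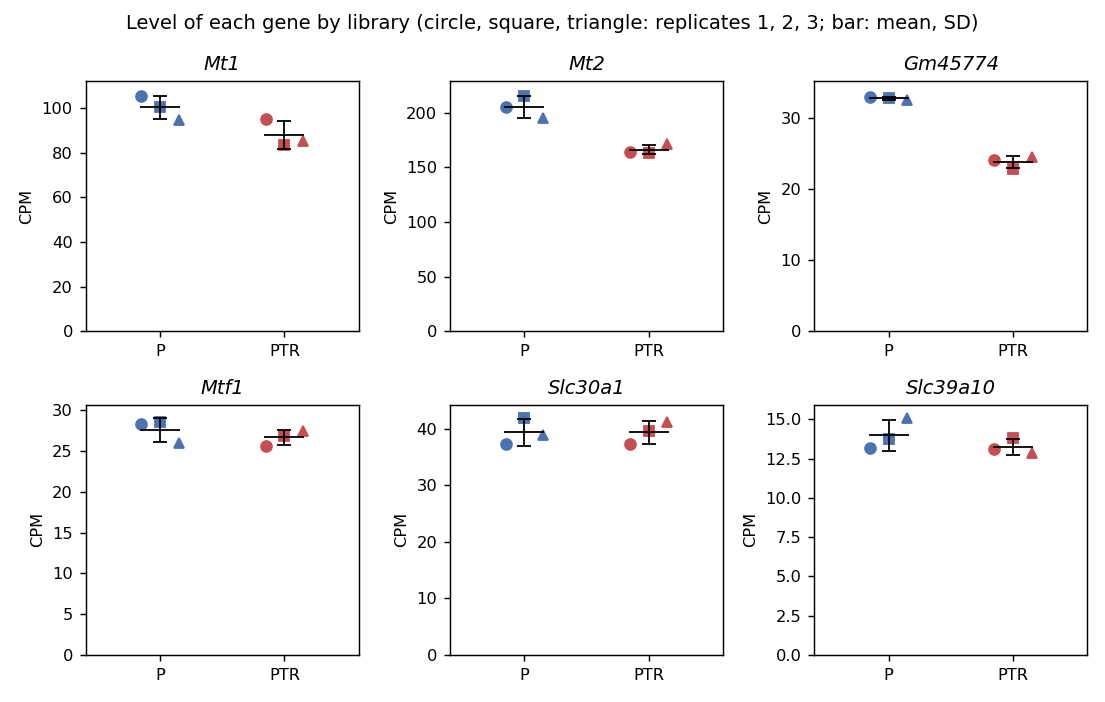
CPM of each of the 6 genes in each library, on linear axes that start at 0, with P in blue and PTR in red, circles, squares and triangles for replicates 1, 2 and 3, and bars for the mean and SD (n = 3). PTR libraries sit below all P libraries for Mt2 (164 to 171 against 195 to 215 CPM) and Gm45774 (22.8 to 24.4 against 32.5 to 33.0 CPM), and the groups overlap for the other genes.

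Gm45774 (ENSMUSG00000110588.1, chr8:94170748-94173412, minus strand) is annotated as an antisense gene of a single exon that runs from inside Mt2 out past its start. It was listed at 33.0, 32.7 and 32.5 CPM in P and at 24.0, 22.8 and 24.4 CPM in PTR. Libraries of the same group lay close together and the groups did not overlap. The means were 32.8 ± 0.212 CPM (SD, n = 3) and 23.7 ± 0.818 CPM (SD, n = 3), or 1.38-fold more in P, with a log2 fold change of -0.47 (SE 0.0513). Groups that do not overlap, with PTR lower, were found for 9.33% of all tested genes and for 2 of these 6, Mt2 and Gm45774, which the choice of the 6 genes had used.

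The Gm45774 values rest on reads that the counting divided between Gm45774 and Mt2. RSEM gives a read that fits several transcripts to each of them in part, so an estimated count that is not a whole number marks a gene that shares reads. The estimated counts of Mt2 and Gm45774 were 4799.39 and 769.61 in P replicate 1, 6453.95 and 981.05 in P replicate 2, and 4721.35 and 786.65 in P replicate 3. In PTR they were 5309.01 and 777.99 in replicate 1, 4634.03 and 646.97 in replicate 2, and 3046.67 and 435.33 in replicate 3. Neither count was whole in any library, yet their sums were whole in 6 of 6: 5569, 7435 and 5508 in P and 6087, 5281 and 3482 in PTR, within a tolerance of 0.015. What was missing from a whole count in either gene was thus present in the other.

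This division crossed the strands, although the library kit keeps strand. Exons overlapped over 432 of the 588 exonic bases of Mt2 (73.5%), including 171 of the 183 coding bases before the stop codon, whereas 2233 of the 2665 bases of Gm45774 lay outside Mt2 exons. Among 492 pairs of genes on opposite strands whose exons overlapped each other and no other gene, with mean counts of at least 50, both counts were not whole in all 6 libraries in 295, and in 234 of these the sum was whole. Among 7400 genes whose exons overlapped no other gene, 19.4% had a count that was not whole in all 6 libraries. How RSEM was set for strand is not given in the sources used here. How many of the reads assigned to Gm45774 came from Mt2 RNA therefore cannot be told from the estimated counts, and the antisense level above is the share that the estimation gave it.

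Gm45774 received 13.8%, 13.2% and 14.3% of the summed count in P and 12.8%, 12.3% and 12.5% in PTR. The share was slightly larger in every P library, with means of 13.8% ± 0.546 and 12.5% ± 0.265 (SD, n = 3). The sum of Mt2 and Gm45774 does not depend on the division. It was 238, 248 and 228 CPM in P and 188, 186 and 195 CPM in PTR, and here too every PTR library lay below every P library. With the pair counted as a single gene the log2 fold change was -0.33 (SE 0.0405), between that of Mt2 and that of Gm45774. The sum of Mt1 and Mt2 was 306 ± 13.8 CPM in P and 254 ± 6.40 CPM in PTR (SD, n = 3), with a log2 fold change of -0.27 (SE 0.0404).

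**Figure D2:**
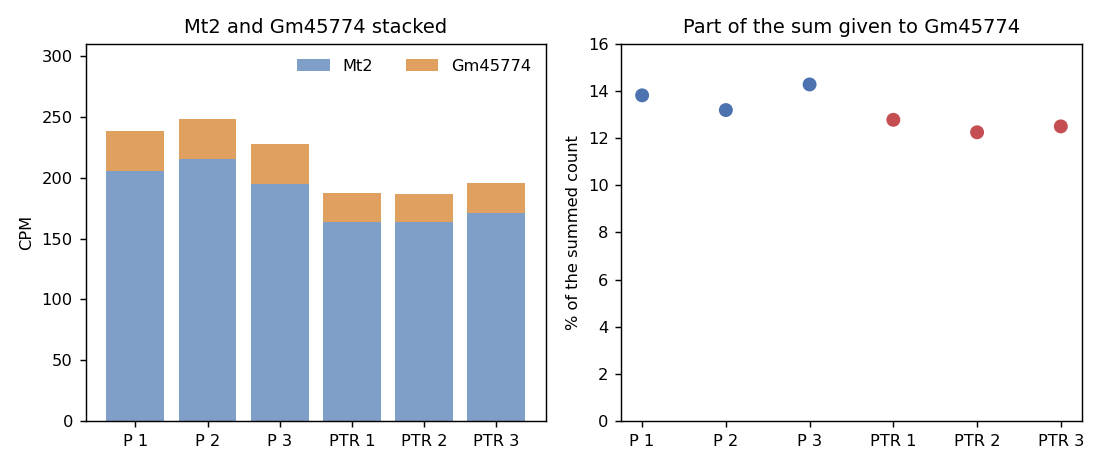
Left, CPM of Mt2 with Gm45774 stacked on it in each library on a linear axis from 0; right, the percent of the summed estimated count assigned to Gm45774 (P blue, PTR red). The stacks reach 228 to 248 CPM in P and 186 to 195 CPM in PTR, and the Gm45774 share runs from 13.2% to 14.3% in P and from 12.3% to 12.8% in PTR.

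Mt1 shared no reads with Mt2. Its estimated counts, 2463, 3019 and 2294 in P and 3088, 2361 and 1523 in PTR, were whole in every library, as were those of Slc39a10. Per kilobase of the main transcripts, of 511 bases for Mt2 and 549 bases for Mt1, Mt2 RNA was 2.09, 2.30 and 2.21 times as abundant as Mt1 RNA in P and 1.85, 2.11 and 2.15 times in PTR. The ratio overlapped between the groups, with means of 2.20 ± 0.102 and 2.04 ± 0.164 (SD, n = 3). Mt2 exceeded Mt1 in every library of either group.

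Per kilobase of all annotated exons merged, the 6 genes kept a single order of level in both groups. Mt2 stood first at 349 ± 17.2 CPM per kilobase in P and 282 ± 7.23 in PTR, and Mt1 second at 80.5 ± 4.26 and 70.6 ± 5.10. Gm45774 followed at 12.3 ± 0.0796 and 8.91 ± 0.307, and Slc30a1 at 7.50 ± 0.450 and 7.50 ± 0.380. Mtf1 at 3.10 ± 0.162 and 3.00 ± 0.103, and Slc39a10 at 2.29 ± 0.161 and 2.17 ± 0.0845, were lowest (SD, n = 3 for each). Neighbours in this order did not overlap over the 6 libraries. The merged exons of Mt1 cover 1246 bases, against 549 in its main transcript, which lowers Mt1 on this measure. Per kilobase of the main transcript Mt1 stood at 183 ± 9.67 CPM in P and 160 ± 11.6 in PTR (SD, n = 3). Mt2 stood at 402 ± 19.8 and 325 ± 8.32 (SD, n = 3) by its own main transcript. Mt2 exceeded 98.5% and Mt1 94.0% of all tested genes by level per kilobase of merged exons, Mtf1 37.2% and Slc39a10 31.3%. The metal-binding products thus ranked far above their regulator.

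Mtf1 (ENSMUSG00000028890.13, chr4:124802104-124849800, plus strand) was measured at 28.3, 28.6 and 26.0 CPM in P and 25.7, 26.9 and 27.5 CPM in PTR. The libraries of the groups were interleaved. The means were 27.6 ± 1.44 and 26.7 ± 0.920 CPM (SD, n = 3), with a log2 fold change of -0.05 (SE 0.0583). Its counts were not whole in 6 of 6 libraries, and its exons overlap those of 1110065P20Rik on the other strand, a gene with a mean count of 363 against 705 for Mtf1. The sum of the pair was whole in 1 of 6 libraries, against 6 of 6 for Mt2 and Gm45774, so the genes that share reads with Mtf1 are not settled by these values.

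Slc30a1 (ENSMUSG00000037434.7, chr1:191906767-191913247, plus strand), the exporter and MTF-1 target, was measured at 37.2, 41.9 and 38.9 CPM in P and 37.2, 39.6 and 41.2 CPM in PTR. Its means were 39.3 ± 2.36 and 39.3 ± 1.99 CPM (SD, n = 3), with a log2 fold change of -0.01 (SE 0.0580). The estimate lay within its standard error of 0, and its sign turned positive in 3 of the 14 fits, those without scaling, without P replicate 2 and without PTR replicate 1. It shared reads with 1700034H15Rik on the other strand, whose mean count was only 16.1.

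Slc39a10 (ENSMUSG00000025986.6, chr1:46807544-46892852, minus strand), the importer, was measured at 13.1, 13.7 and 15.1 CPM in P and 13.1, 13.8 and 12.9 CPM in PTR. PTR replicate 2 lay within the range of P, and PTR replicates 1 and 3 lay below its lowest library. The means were 13.97 ± 0.978 and 13.3 ± 0.515 CPM (SD, n = 3), with a log2 fold change of -0.07 (SE 0.0761). The log2 fold change was negative for all 6 genes as fitted, with a median of -0.13, but for Mtf1, Slc30a1 and Slc39a10 it was smaller than its standard error.

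The other zinc transporters were taken from a list of the whole ZnT (Slc30) and ZIP (Slc39) families. Apart from Slc30a1 and Slc39a10, 22 were in the table, 3 had a count of 0 in every library, and 15 were tested. By edgeR's quasi-likelihood test 0 of the 15 were called, against 0.246% of all tested genes, and 3 had an unadjusted p under 0.05, against 11.4% of all tested genes. Their log2 fold changes were higher for 6 and lower for 9, with a median of -0.02. The groups did not overlap for 2 with PTR higher and 3 with PTR lower, against 17.6% of all tested genes in either direction.

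Most ZnT proteins move zinc out of the cytosol, and the genes of this family varied little. Slc30a4, which loads zinc into vesicles, was by CPM the most abundant of the family at 890 ± 39.7 in P and 871 ± 27.9 in PTR (SD, n = 3), with a log2 fold change of -0.03 (adjusted p = 0.807 by edgeR). Slc30a9 stood next at 91.2 ± 2.21 and 92.4 ± 3.50 CPM (log2 fold change 0.02, adjusted p = 0.928 by edgeR). Slc30a7, a transporter of the Golgi, had the smallest p in the family, with a log2 fold change of 0.05 (adjusted p = 0.725 by edgeR). The 6 tested ZnT genes, Slc30a1 among them, ran from -0.05 to 0.05, and Slc30a8 and Slc30a10 had a count of 0 in all libraries.

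The ZIP proteins bring zinc into the cytosol, and 11 of 14 genes were tested. Slc39a14, a carrier of zinc, iron and manganese, was by CPM the most abundant at 318 ± 14.3 in P and 315 ± 4.71 in PTR (log2 fold change -0.02, adjusted p = 0.904 by edgeR). Slc39a7, which releases zinc from the endoplasmic reticulum, was measured at 205 ± 7.64 and 184 ± 4.40 CPM and had the smallest p of the family, with a log2 fold change of -0.16 (SE 0.0390, adjusted p = 0.158 by edgeR). Slc39a8, a zinc and manganese carrier with few counts, was at 5.00 ± 0.572 and 3.90 ± 0.450 CPM (log2 fold change -0.34, SE 0.144, adjusted p = 0.400 by edgeR). The groups did not overlap for either Slc39a7 or Slc39a8, with PTR lower, and neither passed the adjustment. Nor did they overlap for Slc39a13 (log2 fold change -0.11), with PTR lower, or for Slc39a3 (0.13) and Slc39a9 (0.05), with PTR higher. Groups without overlap, in either direction, were found for 17.6% of all tested genes.

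**Figure D3:**
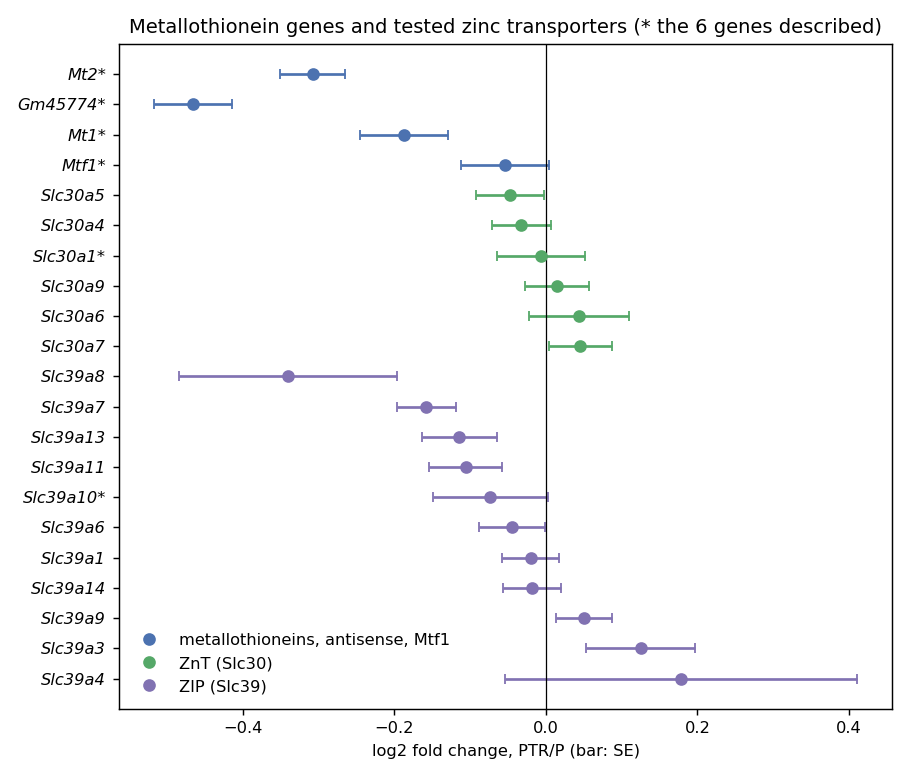
Log2 fold change of PTR over P with its SE (bars) from edgeR for the metallothionein genes, Mtf1 and every tested ZnT and ZIP gene, with stars on the 6 genes described and a line at 0. Gm45774 (-0.47) lies left of every transporter, Mt2 (-0.31) lies left of all but Slc39a8 (-0.34, SE 0.144), and the ZnT genes lie within -0.05 and 0.05.

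Genes of other known inducers of the metallothionein promoters were read from lists in the same fit. Of the metal and oxidant response, which shares inducers such as cadmium with Mt1 and Mt2, 11 genes were tested. Of these 0 were called, against 0.246% of all tested genes, and 2 had an unadjusted p under 0.05, against 11.4%. The median log2 fold change was -0.03. Ndrg1 and Txnrd1, the most abundant by CPM, had log2 fold changes of -0.05 and -0.02. Hspa1b, a heat shock chaperone also induced by heavy metals, had the smallest p, with 34.3 ± 1.09 CPM in P and 30.1 ± 0.802 in PTR (SD, n = 3) and a log2 fold change of -0.19 (adjusted p = 0.181 by edgeR). Srxn1, the other with an unadjusted p under 0.05, was higher in PTR (log2 fold change 0.10, adjusted p = 0.400 by edgeR). The groups did not overlap for Srxn1, or for Hspa1b and Hmox1 (log2 fold change -0.09), with PTR lower for these. Groups without overlap were found for 17.6% of all tested genes.

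Of the glucocorticoid response, 9 genes were tested and 0 were called, against 0.246% of all tested genes. An unadjusted p under 0.05 was found for 3 of the 9, against 11.4% of all tested genes. The median log2 fold change was -0.04. Errfi1, a feedback inhibitor of the EGF receptor, was at 407 ± 16.1 CPM in P and 372 ± 12.2 in PTR (log2 fold change -0.13, adjusted p = 0.243 by edgeR). Sgk1, a kinase induced by glucocorticoids, was at 213 ± 6.11 and 188 ± 9.74 CPM (log2 fold change -0.18, SE 0.0436, adjusted p = 0.146 by edgeR). The groups did not overlap, with PTR lower, for 3 of the 9, Errfi1, Sgk1 and the transcription factor gene Klf9 (12.9 ± 0.623 and 10.6 ± 0.454 CPM), against 9.33% of all tested genes. Sgk1 was called by DESeq2 (adjusted p = 0.0366) and by edgeR without a filter on low counts (adjusted p = 0.00673).

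Of the IL-6 and STAT3 response, 8 genes were tested and 0 were called, against 0.246% of all tested genes. An unadjusted p under 0.05 was found for 2 of the 8, against 11.4% of all tested genes. The median log2 fold change was -0.09. Stat3 itself was at 77.1 ± 2.93 CPM in P and 69.7 ± 2.78 in PTR (SD, n = 3), with a log2 fold change of -0.14 (adjusted p = 0.262 by edgeR), and the abundant Junb and Lif had log2 fold changes of -0.11 and -0.09. Of the copper handling genes, 9 were tested, 0 were called and 0 had an unadjusted p under 0.05, against 0.246% and 11.4% of all tested genes. In that list Sod1 and Commd1 were the most abundant, with log2 fold changes of 0.01 and 0.03, and the copper importer Slc31a1 had the smallest p (log2 fold change 0.05, adjusted p = 0.771 by edgeR). Of 8 factors known to act at metallothionein promoters, Mtf1 among them, 0 were called, against 0.246% of all tested genes. The most abundant of the 8, Nfe2l2 and Sp1, had log2 fold changes of 0.04 and -0.03.

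The position of the pair on chromosome 8 was not used in choosing the genes, so the surrounding genes were read as well. Within 250 kb of the start of Mt2, 19 other genes were annotated, 4 had a count of 0 in every library and 7 were tested. By edgeR 0 of the 7 were called, against 0.246% of all tested genes, and 4 had an unadjusted p under 0.05, against 11.4% of all tested genes. All 7 had a negative log2 fold change, with a median of -0.14, while over all tested genes 6893 were higher and 7324 lower. The same sign held for 7 of 7 in each of the 14 fits, with medians between -0.10 and -0.19. Among those named here, the groups did not overlap for Ogfod1 and Ap3s1-ps2, with PTR lower, against 9.33% of all tested genes.

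The neighbours differed in function. On the Mt2 side, Ogfod1, a ribosomal prolyl hydroxylase, had a log2 fold change of -0.15 (SE 0.0497, adjusted p = 0.290 by edgeR). Nudt21, a cleavage factor of mRNA 3′ ends, had -0.06 and Bbs2, a protein of the primary cilium, had -0.14. On the Mt1 side, Nup93 of the nuclear pore had -0.14, Herpud1 of the endoplasmic reticulum stress response had -0.13 (adjusted p = 0.343 by edgeR), and the pseudogene Ap3s1-ps2 had -0.28 (SE 0.148, adjusted p = 0.524 by edgeR). The estimates for Mt2 and Gm45774 were more negative than that of any of these neighbours, and that for Mt1 was more negative than those of all but Ap3s1-ps2; the differences between the genes were not tested.

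**Figure D4:**
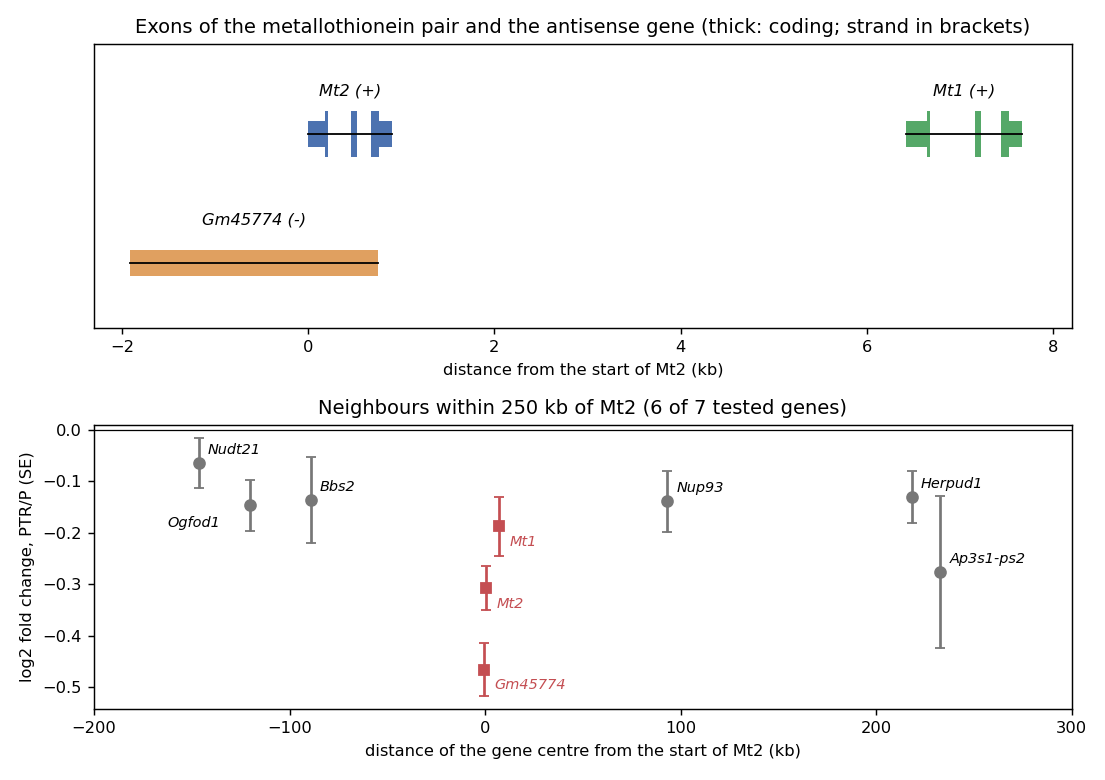
Top, exons of Mt2, Mt1 and Gm45774 by distance in kb from the start of Mt2 (thick boxes, coding); bottom, log2 fold change of PTR over P with its SE for 6 of the 7 tested genes within 250 kb, by distance of the gene centre, with the metallothionein pair and Gm45774 in red. Gm45774 lies over most of Mt2 on the other strand and 5513 bases separate Mt2 from Mt1; the 6 grey neighbours lie between -0.06 and -0.28.

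Likeness was measured as the root mean square difference of log2 CPM over the 6 libraries, each gene centred on its own mean, among 11805 genes with a mean count of at least 50. The genes most like Mt2 were Cyp27a1, a mitochondrial sterol hydroxylase (0.0272), and Saa3, an acute phase protein (0.0330), followed by B3galt6 (0.0418), Cmip (0.0423) and Prag1 (0.0434). The median over all genes ranked was 0.178, and Mt1 stood at rank 230 and Gm45774 at rank 149. Cyp27a1 was at 10.4, 10.8 and 10.2 CPM in P and 8.48, 8.68 and 8.81 CPM in PTR, highest in P replicate 2 as Mt2 was.

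The genes most like Mt1 were 2310022B05Rik (0.0294), the sphingosine kinase Sphk1 (0.0342), the autophagy protease Atg4d (0.0351), the histone deacetylase Hdac5 (0.0363) and Aspscr1 (0.0371). Sphk1 was at 37.55, 36.02 and 36.10 CPM in P and 35.4, 30.7 and 30.8 CPM in PTR, with PTR replicate 1 nearest to P, as for Mt1. Mt2 stood at rank 1368 and Gm45774 at rank 7055 in this order.

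Fold changes were recomputed under 13 alternatives. Over these the log2 fold change of Mt2 ran from -0.34 to -0.27, that of Gm45774 from -0.48 to -0.44 and that of Mt1 from -0.25 to -0.15. Each of these 3 was negative in every fit. Mtf1 ran from -0.09 to -0.02 and Slc39a10 from -0.11 to -0.02, while Slc30a1 changed sign. The adjusted p of Mt2 rose past 0.05 without P replicate 1 (0.0850), PTR replicate 2 (0.156) or PTR replicate 3 (0.0663), and that of Mt1 fell to 0.0189 with no filter on low counts, by edgeR. These are a description of the values that chose the genes.

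**Figure D5:**
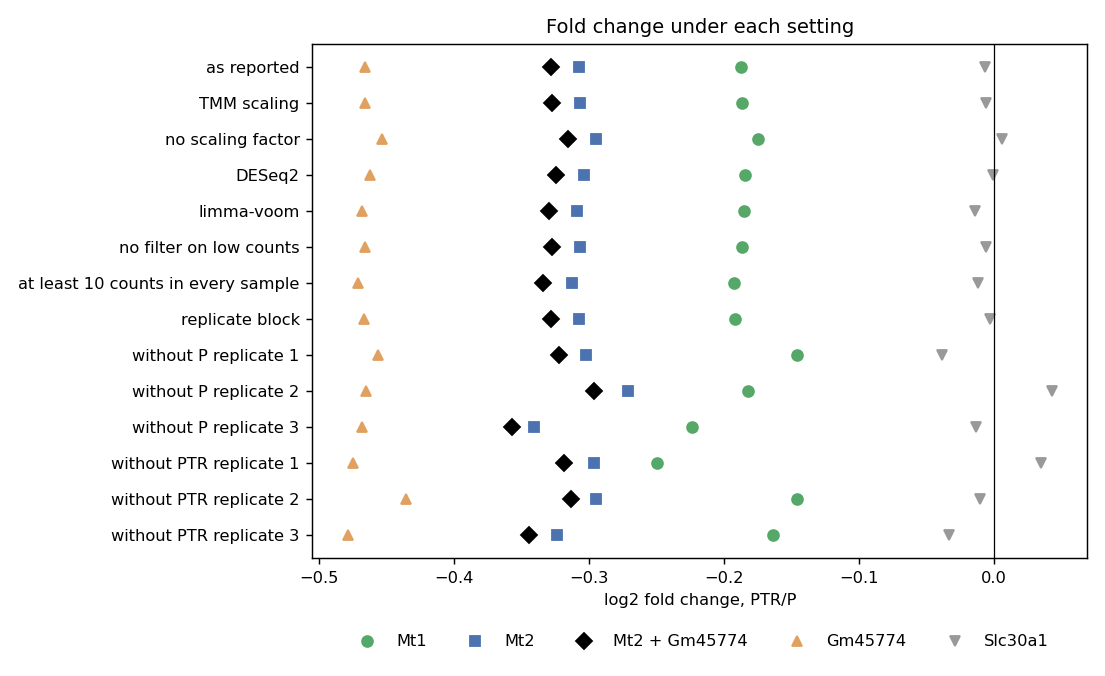
Log2 fold change of PTR over P for Mt1, Mt2, Gm45774, the sum of Mt2 and Gm45774, and Slc30a1 under each of the 14 settings on the vertical axis. The order of the 4 metallothionein symbols is the same in every row, from Gm45774 (-0.48 to -0.44) to Mt1 (-0.25 to -0.15), and Slc30a1 lies on either side of 0.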

How the data were processed

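PolyA RNA of 6 EMT6 samples (3 P, 3 PTR) had been made into strand-specific libraries. Per the study's methods and the submitters' processing notes, the authors checked reads with FastQC 0.11.5, aligned them to GRCm38 with STAR 2.6.0a and quantified genes with RSEM 1.3.1. The authors deposited RSEM's estimated counts per gene, summed over transcripts, which need not be whole because a read that fits several transcripts is divided. They are not normalized.

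The estimated counts were rounded for the tests. Genes were filtered with filterByExpr (minimum count 10, minimum total 15), scaled by the upper quartile and tested with edgeR 4.0.16 (quasi-likelihood, group only, two-sided, Benjamini-Hochberg over all genes tested, R 4.3.3), and the fit was first tested on simulated data in which 200 genes had known fold changes. The read-sharing check used the counts as deposited. Symbols, exons and lengths came from GENCODE M21 (GRCm38), which matched 53274 of 53465 genes, and promoters from RefSeq (GRCm38.p6). The study's methods name an earlier GENCODE release for the alignment, so exon overlaps given here may differ from those RSEM worked with. Lengths for levels per kilobase are merged exons unless a transcript is named. Total counts per library set the precision: 3 counts correspond to 0.0925 to 0.169 CPM.

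The 6 genes and the gene lists were chosen with earlier results of these data known. Genes named in the text are the 6; in each list the 2 tested genes with the highest mean CPM and the gene with the smallest p; the tested neighbours of Mt2 within 250 kb, of which 1 is not reported here; and the 5 genes most like Mt2 and Mt1 over the libraries. Slc39a3, Slc39a8, Slc39a9, Slc39a13, Srxn1, Hmox1, Klf9, the marker genes and the genes whose exons overlap those of the 6 were named after their values were seen. The alternatives were DESeq2 1.42.0, voom from limma 3.58.1, TMM in place of the upper quartile, library totals alone, no filter, at least 10 counts in every library, a replicate block, and leaving out each library. No protein sequence was used here.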

Additional observations from a re-analysis of the deposited data

How the results depend on the processing

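Over all genes, 35 calls became 111 with DESeq2, 400 with no filter on low counts, 54 with at least 10 counts in every library and 68 with a replicate block. Leaving out a library gave 8 to 64 calls: 11 without P replicate 1, 64 without P replicate 2, 9 without P replicate 3, 12 without PTR replicate 2 and 8 without PTR replicate 3. The cause of these moves was not tested. Among zinc transporters other than Slc30a1 and Slc39a10, 0 calls became 1 with no filter (Slc39a7, log2 fold change -0.16, adjusted p = 0.0406 by edgeR). Among the other response lists 0 became 1 with DESeq2 and 1 with no filter, Sgk1 in each case. No alternative called a neighbour of Mt2.

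Same-numbered libraries deviated from their group means with correlations of 0.0758, 0.114 and -0.0809. Whether the numbers pair the samples cannot be settled from these values, since differently numbered libraries were not correlated for comparison. With the replicate block the log2 fold change was -0.31 for Mt2, -0.47 for Gm45774 and -0.19 for Mt1, and 0 neighbours were called. Slc30a1 ran from -0.04 to 0.04 over the alternatives, on both sides of 0. Slc39a10 had the fewest counts of the 6 genes (229 to 424 a library) and the largest SE (0.0761). With 3 libraries a group, differences near 1 SE could not be resolved.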
